A study of Mus musculus with 12 samples.

Results

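The genes described here encode 8 ligands of the HGF, FGF and EGF families through which fibroblasts can act on keratinocytes, namely Hgf, Fgf2, Fgf7, Fgf10, Hbegf, Areg, Ereg and Nrg1. They were grouped by what the proteins do, with no threshold on their values, though with earlier results of these data known. Counts of called ligands are therefore a description. On the array, 7 of the 8 had at least 1 probe set paired with their symbol alone, 11 probe sets in all, among 34945 such probe sets of 18193 genes. Areg had none in the annotation used and was not analysed here. Where a gene had several probe sets, the one with the highest mean over the 12 arrays gave its main value, and the others are given beside it.

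RNA was measured on Affymetrix arrays, 1 array for each of 12 samples of fibroblasts, in 3 groups of 4. The Pap group held fibroblasts of InvEE back skin associated with papillomas, benign epidermal tumours; the labels also call it tumour-associated. The InvEE group held fibroblasts of inflamed InvEE back skin, and the WT group those of normal wild-type back skin. InvEE transgenic mice make activated MEK1, a kinase of the ERK pathway, from the involucrin promoter. That promoter works in differentiating keratinocytes, so the transgene is not driven in the fibroblasts themselves. All mice of the 3 groups were male, 7 weeks old and carried a PDGFRα-H2B-eGFP allele, whose green nuclei mark cells that express the PDGF receptor alpha, and green cells were collected from digested dermis by flow sorting. RNA passed through 1 round of NuGEN Pico amplification before labelling. The labels do not say that the 4 samples of a group were separate animals, so p-values rest on the spread between the samples, part of which may be technical. The samples were bulk RNA, in which fewer cells of a kind and less RNA per cell cannot be told apart.

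Hepatocyte growth factor, the product of Hgf, is made by mesenchymal cells as an inactive precursor. Once cleaved by serine proteases it acts on the receptor Met, which epithelial cells carry. Fgf7, also known as keratinocyte growth factor, and Fgf10 are likewise made by mesenchyme and act on the epithelial splice form of Fgfr2, whereas Fgf2 acts on several FGF receptors. The EGF family ligands are made as membrane proteins and shed from the surface: epiregulin and heparin-binding EGF bind Egfr and Erbb4, and neuregulin 1 binds Erbb3 and Erbb4. In skin, these ligands are known for driving the growth, migration and wound response of keratinocytes, and FGF7 and FGF10 for their expression in the dermal papilla of the hair follicle.

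The sorted cells expressed fibroblast genes at a high level. Pdgfra lay between 10.43 and 11.26 on the log2 scale in Pap arrays, between 10.35 and 10.88 in InvEE arrays and between 9.26 and 10.34 in WT arrays. Col1a1, a type I collagen gene, lay between 14.42 and 14.55 in Pap, between 14.04 and 14.46 in InvEE and between 14.36 and 14.55 in WT arrays. None of the 10 fibroblast markers was dim in a group, where a group is called dim if its mean lay below 6.162, under which 40% of probe-set means fell. None of 8 pericyte and smooth muscle markers was dim in a group either. The log2 of the summed level of these 8 was 10.17 to 10.81 in Pap, 10.9 to 11.33 in InvEE and 11.95 to 12.06 in WT arrays. The 3 groups did not overlap in this sum, and the part of these markers in the ligand values was not tested. The InvEE arrays stood apart in the poly-A spike controls, RNAs added during sample preparation, with a level of 9.78 to 12.50 in Pap, 7.76 to 8.60 in InvEE and 9.24 to 12.24 in WT arrays. The level of the hybridisation controls was 12.52 to 12.99 in Pap, 12.51 to 12.64 in InvEE and 12.68 to 13.26 in WT arrays. Every InvEE array was below every WT array in it, and its part in the differences was not tested. The excess of the 3' over the 5' control probe set of Gapdh, which grows as RNA is degraded or shortened in amplification, was 2.29 to 3.76 in Pap, 1.62 to 3.37 in InvEE and 1.59 to 2.28 in WT arrays, and was highest in Pap 4 and InvEE 3. Every Pap array was above every WT array, also in the same measure of beta-actin, which was -0.29 to 0.24 in Pap, -0.46 to -0.15 in InvEE and -0.56 to -0.41 in WT arrays, and the part of this in the differences between Pap and WT was not tested.

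In papilloma-associated fibroblasts, Hgf, Ereg and Nrg1 were higher and Fgf7 was lower than in either other group. Of the 7 measured ligands, 3 rose and 1 fell in Pap against WT fibroblasts, and the same counts and genes held in Pap against InvEE fibroblasts (limma, adjusted p under 0.05 over all genes). Over all 18193 genes, 9.65% were called in the first comparison, 4.85% higher and 4.8% lower, and 6.71% in the second, 3.67% higher and 3.04% lower. In InvEE against WT fibroblasts none of the 7 was called, where 0.533% of all genes were, while Hgf and Fgf10 had an unadjusted p under 0.05, as did 15.6% of all genes. At that unadjusted level 4 ligands passed in Pap against WT, beside 22.4% of all genes, and 5 in Pap against InvEE, beside 26.5%, Fgf10 being the addition. The comparisons with Pap share the Pap arrays, so the second set of calls is not independent of the first. The median difference of the 7 ligands was 0.19 in Pap against WT, -0.36 in Pap against InvEE and 0.40 in InvEE against WT fibroblasts, beside medians over all genes of 0.04, 0.12 and -0.09, all on the log2 scale.

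**Figure D1:**
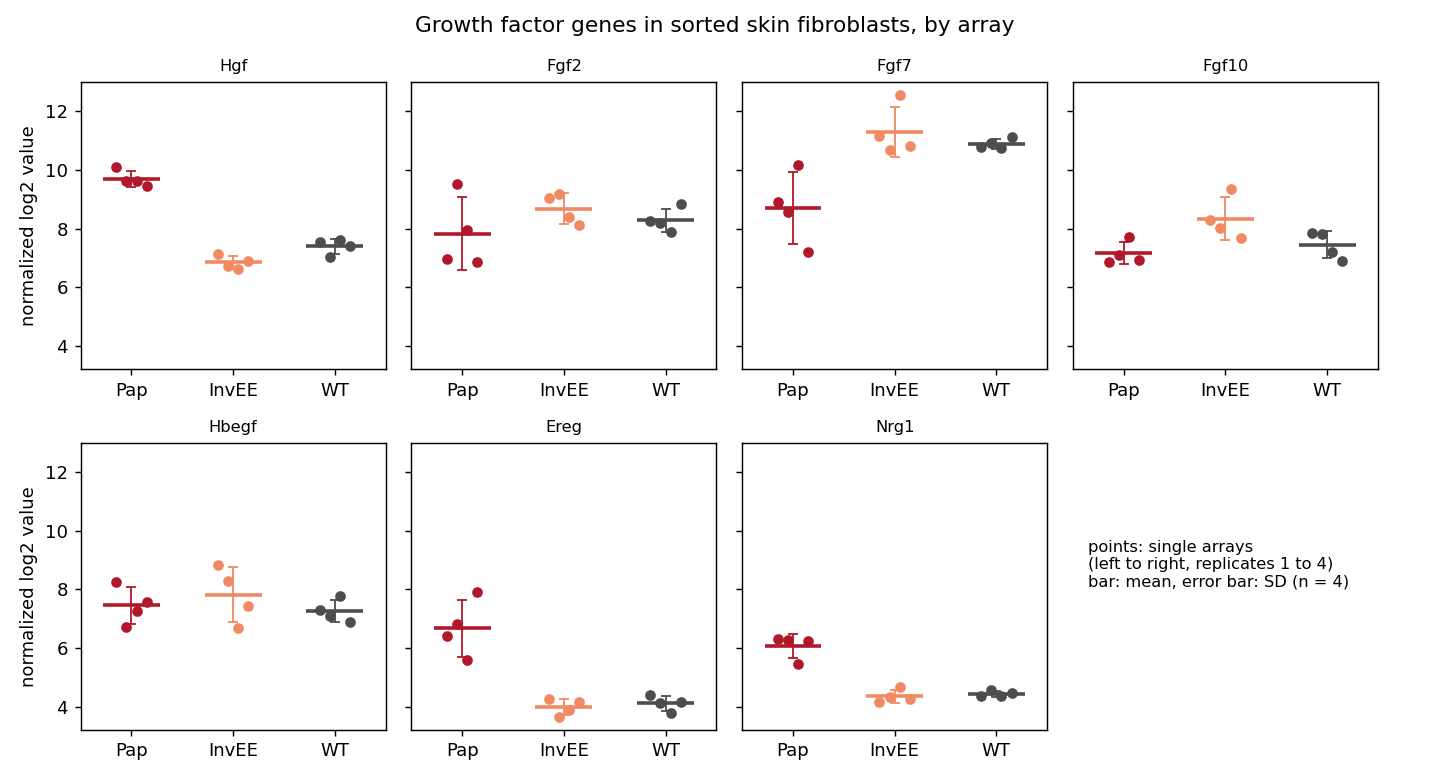
Normalized log2 value of each of the 7 measured ligand genes in the 4 Pap, 4 InvEE and 4 WT arrays, 1 point per array, with a bar at the group mean and an error bar of 1 SD. For Hgf, Ereg and Nrg1 every Pap array lies above the other 8 arrays, and for Fgf7 every Pap array lies below them.

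**Figure D2:**
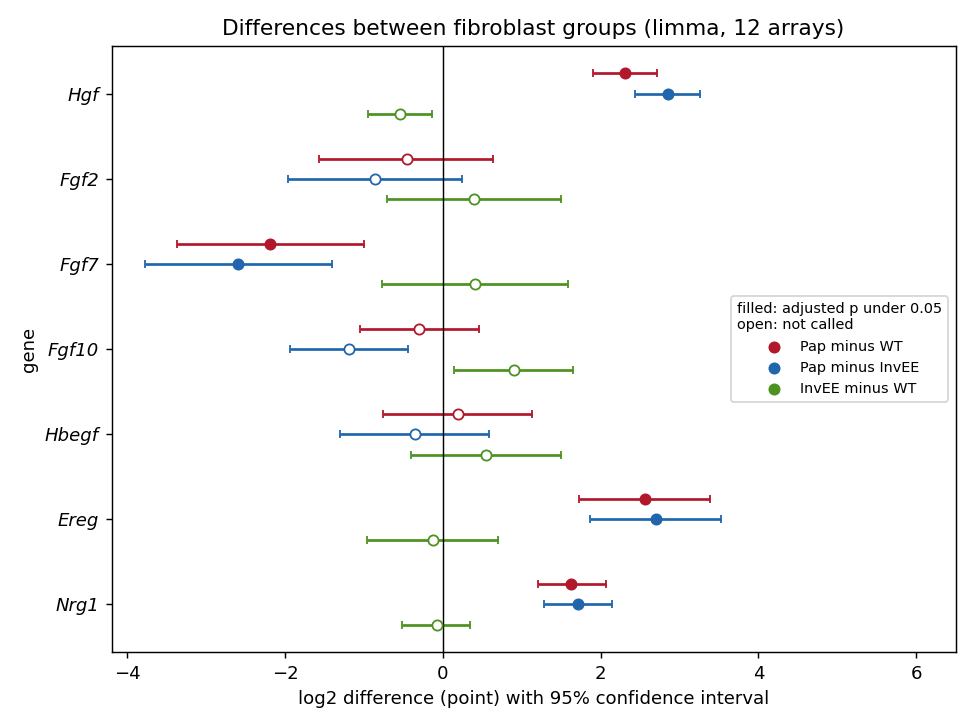
Log2 difference between groups for each ligand gene, as points with 95% confidence intervals from the fit to 12 arrays, Pap minus WT, Pap minus InvEE and InvEE minus WT from top to bottom for each gene. Filled points were called at an adjusted p under 0.05, and these are Hgf, Fgf7, Ereg and Nrg1 in both comparisons of Pap, with intervals for Hgf of 1.90 to 2.71 and 2.44 to 3.26.

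The 250 bases upstream of the annotated starts of Hgf and Fgf7 are shown because these were the called ligands, opposite in direction, for which the RefSeq promoter table used here holds a sequence. They are from build GRCm38.p6, on the + strand, at chr5:16553245-16553494 and chr5:16553651-16553900 for the 2 start sites of Hgf and at chr2:126034408-126034657 for Fgf7, each written 5′ to 3′ and ending at the base before the start. Capitals mark matches to the E-box letters CANNTG.
Hgf, start site 1: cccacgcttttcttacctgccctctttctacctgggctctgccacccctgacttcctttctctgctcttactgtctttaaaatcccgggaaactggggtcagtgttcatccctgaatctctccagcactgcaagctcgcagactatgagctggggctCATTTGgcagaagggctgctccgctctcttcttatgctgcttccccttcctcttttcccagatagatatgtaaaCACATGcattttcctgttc
Hgf, start site 2: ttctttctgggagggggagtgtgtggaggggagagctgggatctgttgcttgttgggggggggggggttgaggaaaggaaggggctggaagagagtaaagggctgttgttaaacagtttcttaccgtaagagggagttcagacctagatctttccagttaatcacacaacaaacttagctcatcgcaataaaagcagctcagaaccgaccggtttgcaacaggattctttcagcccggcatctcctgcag
Fgf7: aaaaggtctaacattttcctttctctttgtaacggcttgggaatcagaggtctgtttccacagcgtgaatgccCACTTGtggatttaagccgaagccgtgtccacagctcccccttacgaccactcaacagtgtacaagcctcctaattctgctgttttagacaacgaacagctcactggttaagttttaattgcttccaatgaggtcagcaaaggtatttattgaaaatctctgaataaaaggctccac

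Both strands of these windows were searched for the E-box, the AP-1 letters TGANTCA, the cyclic AMP response element TGACGTCA, the TATA letters TATAAA, the ETS letters ACCGGAAG and the STAT letters TTCNNNGAA. The E-box was found 93 and 19 bases before the first start site of Hgf and 177 bases before the start of Fgf7, and is held by 66.2% of the 32851 promoter windows of the same length. None of the other letters occurred in these 3 windows, while the AP-1 letters occurred in 6.75%, the cyclic AMP element in 1.55%, the TATA letters in 12.4%, the ETS letters in 1.72% and the STAT letters in 7.02% of all windows. The matches are a description of letters and say nothing of which factors bind.

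Hgf lies at chr5:16553495-16619439 in GRCm38.p6. Its main probe set, 1451866_a_at, had log2 values of 10.10, 9.63, 9.62 and 9.46 in Pap arrays 1 to 4, against 7.14, 6.73, 6.63 and 6.90 in InvEE arrays and 7.53, 7.04, 7.62 and 7.40 in WT arrays. Every Pap array was higher than every other array, whereas InvEE and WT arrays overlapped through InvEE 1. The group means were 9.70 ± 0.27 in Pap, 6.85 ± 0.22 in InvEE and 7.40 ± 0.26 in WT fibroblasts (SD, n = 4 each). Hgf was thus 4.95-fold higher in Pap than in WT fibroblasts, a log2 difference of 2.31 ± 0.19 (SE) with a limma adjusted p of 1.74e-05. Against InvEE fibroblasts it was 7.22-fold higher, by 2.85 ± 0.19 with an adjusted p of 6.79e-06. InvEE minus WT was -0.55 ± 0.19, with a 95% interval of -0.95 to -0.14 and an adjusted p of 0.204, and it was not called.

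The size of the Hgf difference depended on the probe set. Probe set 1425379_at had 9.78, 7.53, 9.33 and 6.17 in Pap arrays, against 6.57, 7.00, 7.03 and 6.25 in InvEE arrays and 6.59, 6.66, 6.94 and 6.59 in WT arrays. Pap 4 was the lowest of all 12 arrays there and the other 3 Pap arrays were the highest, so the groups overlapped. Its differences of 1.51 ± 0.62 against WT (adjusted p 0.181) and 1.49 ± 0.62 against InvEE (adjusted p 0.166) were not called in the fit over all 45037 probe sets, of which 7.65% and 5.59% were called. Probe set 1442884_at, with values of 5.36 to 5.83 in Pap, 5.11 to 5.35 in InvEE and 5.26 to 5.85 in WT arrays, was dim in every group. Its Pap values did not overlap the InvEE values, but the difference of 0.39 ± 0.16 was not called (adjusted p 0.172). In the same fit the main probe set was called against WT (adjusted p 2.66e-05) and InvEE (1.12e-05).

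**Figure D3:**
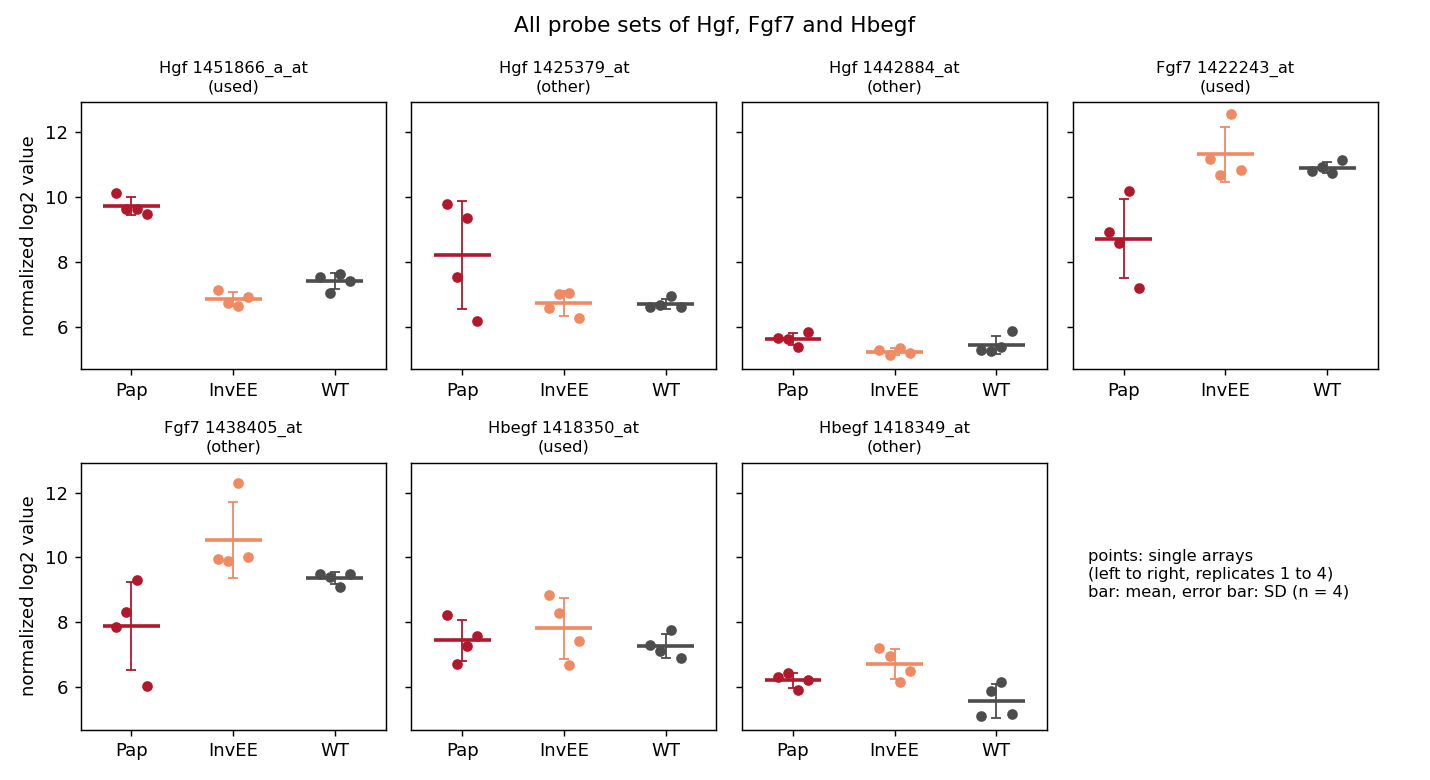
Normalized log2 values of every probe set of the ligands with more than 1 probe set, Hgf, Fgf7 and Hbegf, 1 point per array in the Pap, InvEE and WT groups, with the group mean and SD. The Pap arrays of Hgf 1425379_at span 6.17 to 9.78, while those of the main Hgf probe set span 9.46 to 10.10.

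Of the 3 FGF ligands, Fgf7 fell in Pap fibroblasts and Fgf2 and Fgf10 were not called in any comparison. Fgf7 (chr2:126034658-126091185), keratinocyte growth factor, had 8.90, 8.57, 10.18 and 7.19 in Pap arrays, against 11.17, 10.67, 12.55 and 10.82 in InvEE arrays and 10.80, 10.91, 10.74 and 11.13 in WT arrays. Every Pap array was lower than all others, with Pap 4 the lowest, and InvEE 3 was the highest. The group means were 8.71 ± 1.23 in Pap, 11.30 ± 0.86 in InvEE and 10.89 ± 0.17 in WT fibroblasts (SD, n = 4 each), so that the Pap arrays were also the most spread. Pap minus WT was -2.19 ± 0.54, a 4.55-fold lower level (adjusted p 0.0248), and Pap minus InvEE was -2.60 ± 0.54, 6.05-fold lower (adjusted p 0.0152). InvEE minus WT was 0.41 ± 0.54, with an interval of -0.77 to 1.59.

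The fall of Fgf7 was close to the threshold. Against WT it was no longer called without Pap 2 (-2.14, adjusted p 0.0555), WT 1 (-2.22, 0.0543), WT 2 (-2.18, 0.0592) or WT 4 (-2.11, 0.0552), and against InvEE when only the 8 arrays compared were fitted (adjusted p 0.0503). Without Pap 4, InvEE 3 and WT 4 together, the arrays of highest Gapdh 3' excess in their groups, it was called at -1.60 against WT and at -1.67 against InvEE. In the arrays left, that excess was still higher in Pap, at 2.29 to 2.6, than in InvEE, at 1.62 to 1.97, and WT, at 1.59 to 1.81. The excess and the group thus cannot be told apart in that fit. The second probe set of Fgf7, 1438405_at, had 7.87, 8.31, 9.32 and 6.05 in Pap arrays, against 9.94, 9.90, 12.30 and 10.00 in InvEE arrays and 9.48, 9.41, 9.10 and 9.48 in WT arrays. It ordered the arrays of Pap and InvEE much as the first did, with Pap 4 lowest and InvEE 3 highest. It was called lower in Pap than in InvEE fibroblasts (-2.65 ± 0.65, adjusted p 0.0376) but not than in WT fibroblasts (-1.48 ± 0.65, adjusted p 0.217), where Pap 3 overlapped the WT arrays. Its InvEE arrays did not overlap its WT arrays, though 1.17 ± 0.65 was not called (adjusted p 0.423).

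Fgf10 (chr13:118714699-118792573), which shares the epithelial receptor form of Fgf7, had 6.88, 7.11, 7.70 and 6.93 in Pap arrays, against 8.30, 8.03, 9.36 and 7.69 in InvEE arrays and 7.84, 7.82, 7.22 and 6.91 in WT arrays. InvEE 3 was again the highest array, and each pair of groups overlapped, Pap and InvEE by a difference of 0.01 between Pap 3 and InvEE 4. The means were 7.15 ± 0.38 in Pap, 8.34 ± 0.72 in InvEE and 7.45 ± 0.46 in WT fibroblasts (SD, n = 4 each). Pap minus InvEE was -1.19 ± 0.35 (adjusted p 0.0617), InvEE minus WT 0.90 ± 0.35 (adjusted p 0.246) and Pap minus WT -0.30 ± 0.35 (adjusted p 0.687), none of them called. The first of these passed the threshold without Pap 3 (-1.37, adjusted p 0.0463) and on the values without further normalization (-1.26, adjusted p 0.0464).

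Fgf2 (chr3:37348477-37410106), basic fibroblast growth factor, which lacks a secretion signal and binds heparan sulfate, had 6.97, 9.53, 7.96 and 6.85 in Pap arrays, against 9.06, 9.19, 8.39 and 8.11 in InvEE arrays and 8.26, 8.19, 7.89 and 8.83 in WT arrays. The Pap arrays held both the highest and the lowest values, and all groups overlapped. The means were 7.83 ± 1.24 in Pap, 8.69 ± 0.52 in InvEE and 8.29 ± 0.39 in WT fibroblasts (SD, n = 4 each). Pap minus WT was -0.46 ± 0.51, with an interval of -1.57 to 0.64, and Pap minus InvEE -0.86 ± 0.51, with an interval of -1.96 to 0.24. Without Pap 2, Pap minus InvEE was -1.43 and was called (adjusted p 0.0393), and without Pap 4, InvEE 3 and WT 4 together Pap minus WT was 0.04.

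Markers of the dermal papilla also differed between the groups. The mean level of 8 papilla markers was 6.81 to 7.56 in Pap, 9.06 to 10.55 in InvEE and 6.72 to 8.24 in WT arrays, highest in InvEE 3, the array with the highest Fgf7 and Fgf10, and lowest in WT 4, the WT array with the highest Fgf7. In Pap against InvEE fibroblasts 6 of the 8 fell, with a median of -2.90, and 0 with the spike covariate and 5 to 7 without 1 array. In Pap against WT 1 rose and 2 fell (0 to 2 fell without 1 array), and in InvEE against WT 0 were called, with a median of 1.93. The log2 of their summed level was 13.64 to 13.97 in Pap, 13.55 to 14.52 in InvEE and 11.50 to 13.31 in WT arrays, so that by this sum every Pap array was above every WT array. Sox2, Corin, Prom1 and Rspo3 were dim in Pap, and Sox2, Corin and Prom1 in WT. Their part in the values of Fgf7 and Fgf10 was not tested.

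In the EGF family, Ereg and Nrg1 rose in Pap fibroblasts and Hbegf was not called. Ereg (chr5:91074617-91093649), which encodes epiregulin, had 6.40, 6.81, 5.59 and 7.93 in Pap arrays, against 4.25, 3.66, 3.87 and 4.17 in InvEE arrays and 4.41, 4.12, 3.79 and 4.16 in WT arrays. The Pap arrays lay above all others and were widely spread, with Pap 4, the array of highest Gapdh 3' excess, the highest. The means were 6.68 ± 0.97 in Pap, 3.99 ± 0.27 in InvEE and 4.12 ± 0.25 in WT fibroblasts (SD, n = 4 each), and InvEE and WT were both dim. Ereg was 5.91-fold higher in Pap than in WT fibroblasts (2.56 ± 0.38, adjusted p 0.00137) and 6.48-fold higher than in InvEE fibroblasts (2.70 ± 0.38, adjusted p 0.00154). Without Pap 4, InvEE 3 and WT 4 together, which left Pap highest in Gapdh 3' excess, these differences were 2.16 and 2.24, both called. InvEE minus WT was -0.13 ± 0.38, with an interval of -0.96 to 0.70.

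Nrg1 (chr8:31807452-32891609), which encodes neuregulin 1, had 6.30, 6.28, 5.45 and 6.24 in Pap arrays, against 4.16, 4.34, 4.67 and 4.25 in InvEE arrays and 4.36, 4.57, 4.35 and 4.46 in WT arrays. The Pap arrays again lay above all others, but the means of 6.07 ± 0.41 in Pap, 4.35 ± 0.22 in InvEE and 4.44 ± 0.10 in WT fibroblasts (SD, n = 4 each) were dim in all groups. Nrg1 was 3.10-fold higher in Pap than in WT fibroblasts (1.63 ± 0.20, adjusted p 3.33e-04) and 3.28-fold higher than in InvEE fibroblasts (1.71 ± 0.20, adjusted p 4.33e-04). InvEE minus WT was -0.08 ± 0.20, with an interval of -0.52 to 0.35. Since no source used here gives the background correction of the deposited values, the sizes of differences from dim groups depend on it.

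Hbegf (chr18:36504927-36515805), heparin-binding EGF, had 8.24, 6.72, 7.28 and 7.58 in Pap arrays, against 8.84, 8.29, 6.70 and 7.44 in InvEE arrays and 7.29, 7.11, 7.78 and 6.89 in WT arrays. The groups overlapped throughout, and the means were 7.46 ± 0.63 in Pap, 7.82 ± 0.94 in InvEE and 7.27 ± 0.38 in WT fibroblasts (SD, n = 4 each). Pap minus WT was 0.19 ± 0.43, with an interval of -0.76 to 1.13, Pap minus InvEE was -0.36 ± 0.43, with an interval of -1.31 to 0.58, and InvEE minus WT was 0.55 ± 0.43, with an interval of -0.40 to 1.5. The second probe set, 1418349_at, had 6.32, 6.45, 5.91 and 6.21 in Pap arrays, against 7.21, 6.96, 6.16 and 6.51 in InvEE arrays and 5.12, 5.89, 6.17 and 5.18 in WT arrays. Its InvEE and WT arrays overlapped by 0.01, and its InvEE minus WT difference of 1.12 ± 0.28 was not called (adjusted p 0.121), nor were Pap minus WT (0.63 ± 0.28, adjusted p 0.227) and Pap minus InvEE (-0.49 ± 0.28, adjusted p 0.299).

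Without overlap between groups stood 4 of the 7 ligands in each comparison of Pap, the same ones that were called, beside 13.8% of all genes in Pap against WT (7.22% higher, 6.56% lower) and 21.1% in Pap against InvEE (14.5% higher, 6.66% lower). In InvEE against WT it was 0 of 7, beside 15.3% of all genes (5.07% higher, 10.2% lower). Among the 3 groups, the order of the means was Pap, WT and InvEE for Hgf, Ereg and Nrg1, in which the lower pair did not differ beyond its test, and InvEE, WT and Pap for Fgf2, Fgf7 and Fgf10, in which the InvEE and WT means did not, nor the WT and Pap means of Fgf2 and Fgf10. For Hbegf no neighbours in the order differed beyond their test.

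The spike level, which set InvEE arrays apart, was entered as a covariate in a further fit. Pap against WT differences of the 4 called ligands remained called. Against InvEE only Hgf did, by 2.95 ± 0.31 (adjusted p 0.00322), while Fgf7 was -1.54 ± 0.87 (adjusted p 0.431), Ereg 1.55 ± 0.51 (adjusted p 0.17) and Nrg1 1.41 ± 0.31 (adjusted p 0.0585). Since no InvEE array reached the spike level of a Pap array, the spike level and the group cannot be told apart in that comparison.

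Keratinocytes, macrophages and neutrophils can also make EGF family ligands. The mean level of 17 measured keratinocyte markers was 6.84 to 8.23 in Pap, 7.36 to 8.56 in InvEE and 6.60 to 6.85 in WT arrays, and the log2 of their sum was 11.25 to 12.93 in Pap, 11.91 to 13.10 in InvEE and 11.01 to 11.34 in WT arrays. In Pap against WT 3 of them rose, Krt14, Krt6a and Dsp, and against InvEE 1 fell, Krt15. In InvEE against WT 2 rose, and 0 to 3 did over the 20 alternatives. The marker medians were 0.32 in Pap against WT, -0.45 in Pap against InvEE and 0.7 in InvEE against WT, beside 0.04, 0.12 and -0.09 over all genes. Among Pap arrays the mean keratinocyte level was highest in Pap 3, at 8.23, the Pap array with the lowest Ereg and Nrg1 and the highest Fgf7. Cdh1 was dim in all groups, Krt17 in Pap and WT, and Krt1, Dsp and Perp in WT. In Pap against WT the count of those that rose was 1 without Pap 3, WT 1, WT 2 or WT 3, in the fit of 8 arrays, and without Pap 4, InvEE 3 and WT 4 together. The part of these markers in the ligand values was not tested. Of 5 measured neutrophil markers S100a9 and Mmp8 rose in Pap against both groups, with a mean marker level of 5.90 to 6.84 in Pap, 5.50 to 5.90 in InvEE and 5.66 to 5.82 in WT arrays and a log2 sum of 8.28 to 9.57, 7.96 to 8.49 and 8.06 to 8.22 in Pap, InvEE and WT. Cxcr2 was dim in all groups, S100a9 and Mmp8 in InvEE and WT, and Csf3r in InvEE. The neutrophil level was highest in Pap 4, the array with the highest Ereg value. The other Pap arrays did not follow this order throughout. Pap 1 had the lowest neutrophil level in Pap, 5.90, with Ereg at 6.40, and Pap 3 had 6.51 with the lowest Ereg in Pap, 5.59. The part of the neutrophil level in the Ereg values was not tested. Without 1 array, 1 to 2 neutrophil markers rose against WT and 0 to 2 against InvEE. Of 10 macrophage and monocyte markers, 0 rose in Pap against either group, Csf1r fell against WT, and Ptprc, Adgre1, Itgam and Ccr2 were dim in all 3 groups. Mrc1 was dim in InvEE and WT but not in Pap, at 6.78 ± 1.86 in Pap, 4.8 ± 0.37 in InvEE and 5.31 ± 0.54 in WT (SD, n = 4 each), and was not called. The mean level of the macrophage markers was 6.37 to 6.92 in Pap, highest in Pap 4, 6.16 to 6.47 in InvEE and 6.38 to 6.71 in WT arrays. Their log2 sum was 10.56 to 11.28 in Pap, 10.44 to 11.59 in InvEE and 11.91 to 12.17 in WT arrays, and their part in the ligand values was not tested.

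All 10 listed receptors of the 3 ligand families were measured in the fibroblasts. In Pap against WT 1 rose and 3 fell, in Pap against InvEE 2 fell, and in InvEE against WT 0 were called. Fgfr2, whose epithelial splice form binds Fgf7 and Fgf10 and whose other form is mesenchymal, averaged 9.40 ± 0.29 in Pap, 11.28 ± 0.36 in InvEE and 10.61 ± 0.44 in WT fibroblasts (SD, n = 4 each). It was lower in Pap by -1.21 ± 0.25 against WT (adjusted p 0.00971) and by -1.88 ± 0.25 against InvEE (adjusted p 9.73e-04). Which splice form was measured was not tested. Fgfr4 averaged 7.66 ± 0.89 in Pap, 9.45 ± 0.50 in InvEE and 10.60 ± 0.13 in WT fibroblasts, with differences of -2.94 ± 0.38 (adjusted p 4.71e-04) against WT and -1.79 ± 0.38 (adjusted p 0.0158) against InvEE. The difference against InvEE lost its call without InvEE 1 or InvEE 4, at -1.72 to -1.64, or in the fit of 8 arrays (adjusted p 0.0507), and with the spike covariate the Fgfr2 difference against InvEE was -1.13 (adjusted p 0.116).

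Fgfr1, the main FGF receptor of mesenchyme, averaged 12.01 ± 0.19 in Pap, 12.01 ± 0.20 in InvEE and 11.36 ± 0.21 in WT fibroblasts. It was higher in Pap than in WT by 0.65 ± 0.16 (adjusted p 0.0258), a call lost without Pap 1, Pap 2, WT 3 or WT 4 (0.57 to 0.66), without Pap 4, InvEE 3 and WT 4 together (0.59, adjusted p 0.0607) or in the fit of 8 arrays (adjusted p 0.0699). InvEE minus WT was also 0.65 ± 0.16, not called (adjusted p 0.102), and 1.34 and called on a probe set with no suffix letter (adjusted p 0.0299). Egfr, the receptor of epiregulin, averaged 9.14 ± 0.38 in Pap, 8.98 ± 0.34 in InvEE and 10.17 ± 0.39 in WT fibroblasts. It was lower in Pap than in WT by -1.04 ± 0.25 (adjusted p 0.0217), a call lost without WT 1 or WT 2 (-0.95 to -0.90) or in the fit of 8 arrays (adjusted p 0.0512). Its InvEE minus WT difference of -1.20 ± 0.25 had an adjusted p of 0.0616, of 0.0314 without Pap 4, and of 0.0216 after ribosomal scaling (-1.37). Fgfr4 had an InvEE minus WT difference of -1.15 ± 0.38 (adjusted p 0.188), called without Pap 4 (adjusted p 0.0484). Met, the receptor of Hgf, was dim in all groups, at 5.93 ± 0.18 in Pap, 5.63 ± 0.21 in InvEE and 5.76 ± 0.12 in WT fibroblasts, and so was Erbb4, at 4.62 ± 0.14, 4.38 ± 0.31 and 4.78 ± 0.51 in Pap, InvEE and WT. Fgfr3, Fgfrl1, Erbb2 and Erbb3 were not called in any of the 3 comparisons. Of these, Erbb3 was dim in Pap, at 6.07 ± 0.97, and in WT, at 6.09 ± 0.44, and averaged 6.34 ± 0.43 in InvEE fibroblasts.

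**Figure D4:**
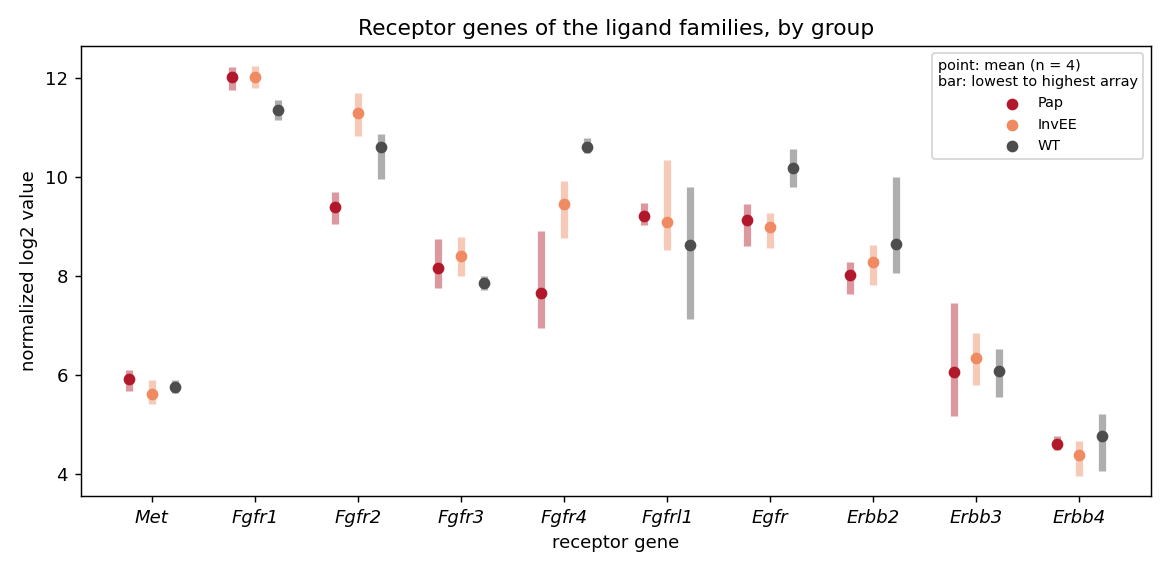
Normalized log2 value of the 10 receptor genes in the Pap, InvEE and WT groups, with a point at the mean of 4 arrays and a bar spanning the lowest to the highest array. Fgfr2 and Fgfr4 are lower in Pap than in both other groups, with means of 9.40 and 7.66, and Met and Erbb4 lie under the dim limit of 6.162 on average in every group.

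Few of the other ligands of the families were called. Of 7 further EGF family ligands 0 were called in each comparison and 4 were dim in all groups, with medians of 0.10 in Pap against WT, 0.23 in Pap against InvEE and -0.22 in InvEE against WT. Of 19 further FGF genes, 1 rose and 2 fell in Pap against WT, 2 rose in Pap against InvEE and 0 were called in InvEE against WT. Of these 19, 6 were dim in all groups. Fgf1, acidic fibroblast growth factor, rose by 1.10 ± 0.24 against WT (adjusted p 0.0119) and by 1.23 ± 0.24 against InvEE (adjusted p 0.0105). Fgf1 was dim in all groups, with means of 6.14 in Pap, 4.92 in InvEE and 5.04 in WT fibroblasts. With the spike covariate its difference against InvEE, 0.71, was not called (adjusted p 0.368). The genes that fell, Fgf12 (-2.32 ± 0.49, adjusted p 0.0112) and Fgf13 (-0.85 ± 0.21, adjusted p 0.0258), encode FGF homologous factors that stay inside the cell. Fgf12 was not called on a probe set with no suffix letter (-0.99, adjusted p 0.331), nor Fgf13 without Pap 2, Pap 4, WT 2 or WT 4 (-0.81 to -0.69), without Pap 4, InvEE 3 and WT 4 together (adjusted p 0.087), in the fit of 8 arrays (adjusted p 0.0716) or after ribosomal scaling (-0.63, adjusted p 0.132). Fgf21, a circulating metabolic factor, was called against InvEE (0.54 ± 0.15, adjusted p 0.048) in 2 of the 12 fits that left out 1 array, those without Pap 3 and without WT 4, with 0.46 to 0.60 in the others. It was not called on values as deposited (adjusted p 0.0909), in the fit of 8 arrays (0.0866), without the 3 arrays together (0.0773) or with the spike covariate (0.37, adjusted p 0.456).

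The next list held genes whose products activate or shed these ligands, together with inhibitors of such proteases. Of 19 measured, 5 rose and 0 fell in Pap against WT, 4 rose and 0 fell in Pap against InvEE, and 0 were called in InvEE against WT, with medians of 0.07, 0.34 and 0.02. Over the 20 alternatives 4 to 5 rose against WT, and 3 to 7 rose and 0 to 1 fell against InvEE. Plat, tissue-type plasminogen activator, rose by 2.71 ± 0.26 against WT (adjusted p 5.99e-05) and 2.69 ± 0.26 against InvEE (adjusted p 1.18e-04). Plau, urokinase, a serine protease reported to cleave the Hgf precursor, rose by 1.99 ± 0.36 against InvEE (adjusted p 0.00666). Against WT it rose by 1.43 ± 0.36 (adjusted p 0.0268), with overlap between the Pap and WT arrays. Of the metalloproteases that can shed EGF family ligands, Adam12 rose by 6.14 ± 0.49 against WT (adjusted p 1.73e-05) and 4.26 ± 0.49 against InvEE (adjusted p 4.21e-04). Adam19 rose by 3.53 ± 0.36 (adjusted p 1.03e-04) and 2.54 ± 0.36 (adjusted p 0.00154) in those comparisons, and Adam9 by 1.34 ± 0.31 against WT (adjusted p 0.0189). With the spike covariate, the differences against InvEE of Adam12 (3.44, adjusted p 0.0692) and Plau (2.48, adjusted p 0.0749) were not called.

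Heparan sulfate binds Hgf, the FGF ligands and Hbegf at the cell surface. Of 20 measured carriers, modifying enzymes and binding proteins, 9 rose and 2 fell in Pap against WT, 3 rose and 2 fell in Pap against InvEE, and 0 were called in InvEE against WT, with medians of 0.41, 0.16 and 0.26. Over all genes, 4.85% rose and 4.8% fell against WT, and 3.67% rose and 3.04% fell against InvEE. Over the 20 alternatives, 6 to 9 of the list rose and 1 to 3 fell against WT. Against InvEE 1 to 6 rose and 0 to 4 fell, with 1 and 0 under the spike covariate. Glypican 1, Gpc1, rose by 3.25 ± 0.26 against WT (adjusted p 1.74e-05) and 2.36 ± 0.26 against InvEE (adjusted p 3.21e-04). Ext1, which builds the heparan sulfate chain, rose by 1.64 ± 0.20 (adjusted p 2.79e-04) against WT and 1.60 ± 0.20 (adjusted p 5.61e-04) against InvEE. Glypican 4, Gpc4, fell by 1.12 ± 0.16 against WT (adjusted p 0.00124) and by 0.85 ± 0.16 against InvEE (adjusted p 0.0105). The FGF binding protein gene Fgfbp3 fell by 1.66 ± 0.29 against WT (adjusted p 0.00338), and Hspg2, perlecan, rose by 1.12 ± 0.16 against InvEE (adjusted p 0.00171). Carriers were thus called in both directions. Against InvEE, Gpc4 was not called after scaling to ribosomal protein genes (-0.45, adjusted p 0.164), nor, with the spike covariate, were Gpc4 (-0.87, adjusted p 0.144), Ext1 (1.45, adjusted p 0.0572) and Hspg2 (0.84, adjusted p 0.12).

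A further list held feedback inhibitors and targets of signalling, most of them tied to the ERK pathway, through which most of the listed receptors signal. Its Socs3 and Cish are inhibitors of cytokine signalling, and ERK activity itself was not measured. Of 21 measured, 1 rose and 1 fell in Pap against WT, 2 fell in Pap against InvEE and 0 were called in InvEE against WT. The medians were 0.11, -0.17 and 0.32. The called genes were Spred2 (1.03 ± 0.28, adjusted p 0.0373) and Errfi1 (-1.17 ± 0.33, adjusted p 0.0431) against WT, and Socs3 (-2.08 ± 0.48, adjusted p 0.0243) and Egr1 (-0.93 ± 0.24, adjusted p 0.0404) against InvEE. Spred2, Errfi1 and Egr1 were each called in only 3 of the 12 fits that left out 1 array, with 0.78 to 1.09, -1.29 to -1.0 and -1.01 to -0.74 in the fits without a call, and Socs3 lost its call without Pap 1, Pap 2, InvEE 1, InvEE 2 or InvEE 4 (-2.15 to -1.75). With the spike covariate Socs3 was -1.83 (adjusted p 0.325) and Egr1 -0.90 (adjusted p 0.324), and on a probe set with no suffix letter Socs3 was -1.38 (adjusted p 0.0608). Scaled to ribosomal protein genes Egr1 was -0.53 (adjusted p 0.155) and Errfi1 -0.95 (adjusted p 0.0966), and in the fit of 8 arrays Spred2 (adjusted p 0.0636) and Egr1 (adjusted p 0.0561) were not called. Errfi1 was also not called on values as deposited (-1.10, adjusted p 0.0685), with the spike covariate (-1.19, adjusted p 0.0519) or without Pap 4, InvEE 3 and WT 4 together (-1.01, adjusted p 0.0719).

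**Figure D5:**
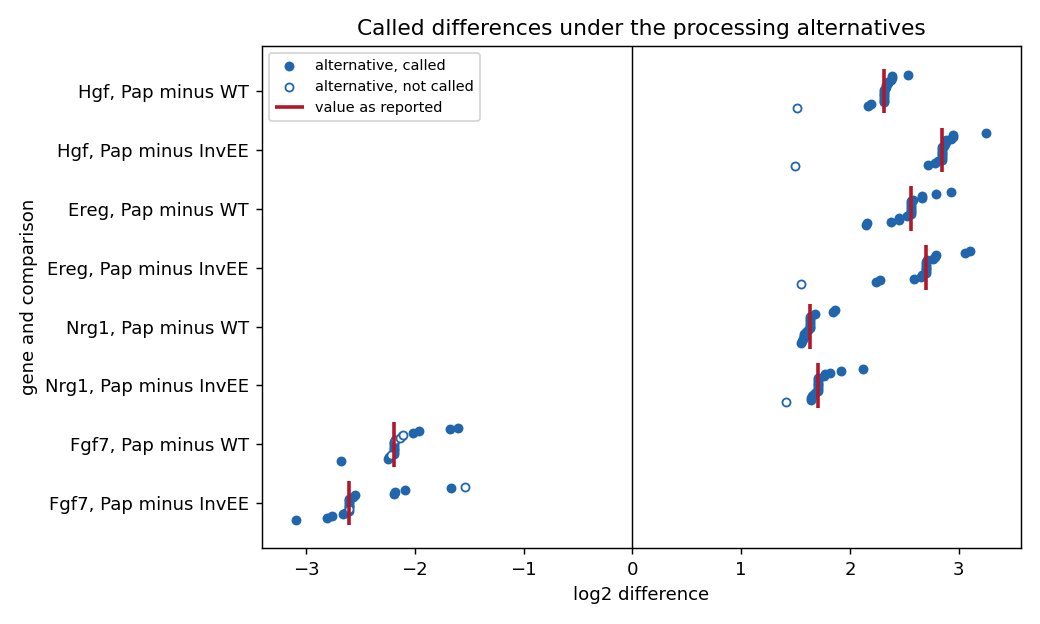
Log2 difference of Hgf, Fgf7, Ereg and Nrg1 in the main fit and in each alternative fit (20, or 19 for Ereg and Nrg1, which the dim filter leaves out), for Pap minus WT and Pap minus InvEE. Hgf ranges from 1.51 to 2.53 against WT and from 1.49 to 3.25 against InvEE, and no gene changes sign.

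For each called ligand, the genes whose values over the 12 arrays were most like it are given as a description. All these correlations span the same 3 groups, so they follow from the group differences to an extent not separated here. For Hgf they were Tmsb4x (Pearson r 0.977), Aqp5 (0.969) and Mmp13 (0.957), a collagenase with a Pap minus WT difference of 7.59. For Ereg they were Lmod1 (0.98), Lancl3 (0.979) and Mmp10 (0.976), another matrix metalloprotease, with a Pap minus WT difference of 3.89. For Nrg1 they were Mfge8 (0.983), Gpr34 (0.982) and Tafa1 (0.977). For Fgf7 they were Ints6l (0.952), 6820431F20Rik (0.948) and Amotl1 (0.946), each lower in Pap, with a Pap minus WT difference of -2.77, -0.50 and -0.61.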

How the data were processed

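RNA of 12 samples of sorted mouse dermal fibroblasts was measured on Affymetrix arrays. The authors deposited values on a log2 scale, from 2.08 to 14.955, with each probe set measured once on each array. limma was used, per the submitters' processing notes. How scans were summarised, background corrected and normalized is not given in the sources used here. Array number and not read depth limits the precision. Arrays shared at most 0.253% of identical values, so none was a copy of another, and correlated at 0.891 to 0.987 within groups. Each was counted as 1 replicate, though these values cannot show whether the samples were separate animals.

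Of 45101 probe sets, 64 were controls, 34945 had 1 symbol in the platform annotation, 932 several and 9160 none. Because quartiles differed by over 0.1 between arrays (0.284 lower, 0.276 upper), values were quantile normalized, and the probe set with the highest mean stood for each of 18193 genes. Of these symbols, 18145 matched RefSeq entries of GRCm38.p6. No detection calls were used and dim genes were kept. One limma 3.58.1 model (R 4.3.3) with 3 group means was fitted to 12 arrays, with moderated variances, two-sided tests and Benjamini-Hochberg adjustment over all genes, called under 0.05. A second fit took 45037 probe sets. The procedure was tested on simulated data. The members and gene lists were chosen with earlier results of these data known, and list counts carry no test.

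All measured ligands and receptors are named, in other pathway lists up to 4 called genes of smallest adjusted p in each comparison, marker genes where a result touches them, and the 3 genes most like each called ligand. Plau is given against WT as well, beyond those 4. Ndst1, Etv1 and Il1rl1 were not analysed here. Of 20 alternatives, 7 changed the normalization, scaling, dim filter, probe set choice, covariates or arrays fitted, 12 left out 1 array each, and 1, leaving out Pap 4, InvEE 3 and WT 4 together, was chosen after seeing the data.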

Additional observations from a re-analysis of the deposited data

Results flagged for a closer look

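Nrg1 in array 3 of the Pap group, at a log2 value of 5.45, stood apart from the other 3 Pap arrays, which lay between 6.24 and 6.30. The gap to the nearest was 0.931 of the range of the group, above Dixon's 95% critical value for 4 samples. It was the only one of 21 groups of member values past that limit, where chance alone flags about 1 group in 20. The value was still above all InvEE and WT arrays.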

How the results depend on the processing

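Among the called ligands the direction was the same under all 20 alternatives (19 for Ereg and Nrg1, which the dim filter leaves out), and the calls that ended are given in the results above, except that on probe sets with no s, x or a suffix Hgf was 1.51 against WT (adjusted p 0.168) and 1.49 against InvEE (0.152); the letter a marks transcripts of 1 gene. Leaving out 1 array, the count of called ligands was 3 to 4 in Pap against WT, 4 to 5 in Pap against InvEE and 0 in InvEE against WT, and that of all genes 1259 to 1792, 578 to 1581 and 0 to 249; the last was 0 without InvEE 1, InvEE 2 or WT 1 (2222, 1967 and 2358 at an unadjusted p under 0.05), 13 without WT 2, 44 without InvEE 3, 49 without Pap 2, 55 without Pap 3 and 249 without Pap 4, and Pap against InvEE had 578 without InvEE 1, 621 without InvEE 2 and 716 without InvEE 4. Of the ligands, 2 were called in each comparison of Pap with 10916 genes left by the dim filter, and 1 in Pap against InvEE with the spike covariate. That filter left out the 40% of genes with the lowest mean over the 12 arrays, and did not use group means or the limit of 6.162. Genes called in InvEE against WT numbered 62 on deposited values, 57 with the replicate block, 0 with the spike covariate (2206 unadjusted) and 163 without the array of highest Gapdh difference in each group. In Pap against InvEE they were 3719 after scaling to 46 ribosomal protein genes, 259 with the covariate and 2055 without the 3 arrays, and in Pap against WT 1094 in the fit of 8 arrays. Ribosomal scaling moved the median of all genes to 0.27, 0.52 and -0.27 and the share of calls that were higher to 71.3%, 91.4% and 28.6%, beside 50.3%, 54.7% and 48.5%, in Pap against WT, Pap against InvEE and InvEE against WT; calls of ligands stayed at 4, 4 and 0. Whether arrays of the same replicate number were handled together was not settled by these values. Of 12 same-numbered pairs, 2 correlated over 0.1 (-0.105 to 0.155), and 6 of 12 arrays correlated best with their own number. Pairs of different number correlated at -0.159 to 0.183. The spike levels of replicates 1 to 4 were 10.98, 10.56, 9.78 and 12.5 in Pap arrays. They followed the same order in WT arrays, at 10.33, 10.22, 9.24 and 12.24, but not in InvEE arrays, at 8.6, 8.09, 8.04 and 7.76. With the replicate block 1551 and 1039 genes were called in the comparisons of Pap, with 4 ligands in each. The block ended the calls of Fgf13 (adjusted p 0.0563) and Errfi1 (0.0699) against WT and of Fgf21 (0.0774), Socs3 (0.0598) and Egr1 (0.08) against InvEE. It ended no other call of a named ligand, receptor or pathway gene. Differences that changed sign were all uncalled. They were Hbegf in Pap against InvEE (0.04, ribosomal) and against WT (-0.07 without Pap 1, to 0.43), Hgf in InvEE against WT (0.02, suffix), Fgf7 (-0.48), Ereg (0.83) and Nrg1 (0.18) in InvEE against WT with the covariate, Fgf7 there without 1 array (-0.01 without InvEE 3, to 0.62), and Fgf2 in Pap against WT without the 3 arrays (0.04). Of receptors they were Fgfr1 in Pap against InvEE (0.01 deposited, 0.40 ribosomal, 0.05 without the 3 arrays, -0.08 to 0.08 without 1), Erbb3 in Pap against WT (0.21, 0.10 and -0.48 to 0.28), ribosomal Erbb4 against WT (0.06) and Fgfr3 (0.16), Erbb2 (0.13) and Erbb3 (0.14) against InvEE, with the covariate Erbb4 in Pap against InvEE (-0.33) and Met (0.03), Fgfrl1 (-0.23), Erbb2 (0.43) and Erbb4 (0.08) in InvEE against WT, Fgfrl1 there without the 3 arrays (-0.44), and without 1 array Erbb3 (-0.72 to 0.03) and Fgfrl1 (-0.07 to 0.54) in Pap against InvEE and Fgfrl1 (-0.02 to 0.87) and Erbb2 (-0.56 to 0.08) in InvEE against WT. The cause was not tested.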

Other observations

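Of other fibroblast factors that act on keratinocytes, 21 were measured. Of these, 2 rose and 1 fell in Pap against WT, 1 rose and 1 fell in Pap against InvEE, and 0 were called in InvEE against WT, with medians of 0.22, 0.17 and -0.12. Igf1, insulin-like growth factor 1, rose by 2.49 ± 0.16 against WT (limma adjusted p 3.73e-06) and by 2.02 ± 0.16 against InvEE (adjusted p 3.74e-05). Wnt5a, a Wnt ligand that acts mostly without beta-catenin, rose by 1.78 ± 0.44 against WT (adjusted p 0.0235) and was not called without Pap 1, Pap 4, WT 2 or WT 3 (1.52 to 1.79). Lif, a cytokine of the interleukin 6 family, fell by 0.77 ± 0.18 against WT (adjusted p 0.0192) and was not called without Pap 1 or WT 2 (-0.74 to -0.64) or after scaling to ribosomal protein genes (-0.54, adjusted p 0.258). Dkk1, a secreted Wnt inhibitor known from the dermal papilla, fell by 0.94 ± 0.19 against InvEE (adjusted p 0.0112), but was not called after ribosomal scaling (-0.54, adjusted p 0.115) or with the spike covariate (-0.97, adjusted p 0.157).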
